A study of Mus musculus with 3 samples.

Results

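Genes of the complement system were followed in a murine acute myeloid leukaemia (AML), the HoxA9-Meis1 AML cells, on a C57Bl/6 background. The 7 genes were C1qa, C1qb and C1qc, which encode the chains of C1q, the central component C3, the receptor C3ar1, properdin (Cfp) and factor B (Cfb). They were found by gene name among the probes that were not controls, which gave 8 probes of 55657 and 7 of 34827 gene names. The genes were picked with their values on these arrays known, so their differences are a description and no test was made of them.

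The cells were exposed for 24 h to Pyrydopyrazine A2 at 3.4 µM, to all-trans Retinoic Acid and 1α-hydroxy-D3 Vitamin together (RA+D3V, 10 µM of each), or left untreated. All 3 samples were described as bone marrow isolates kept in SFEM medium, and the labels give no clone, number of animals or purity. There was 1 Agilent array in 1 colour per condition, so no difference has a replicate check, and all 3 shared 1 slide and 1 scan. On the arrays 46.6% (labelled A2), 46.8% (labelled RA+D3V) and 46.0% (untreated) of 59305 spots were well above background, and no spot was saturated.

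Which treated array is which is not settled. By rank over all spots, the column labelled RA+D3V in the authors' deposited value table equals the scanner file labelled A2 (Spearman 1), and the table's A2 column equals the scanner file labelled RA+D3V (Spearman 1). Cyp24a1, the hydroxylase that degrades vitamin D and a textbook vitamin D target, had a scaled log2 signal of 6.07 on the scanner array labelled A2, -5.86 on the RA+D3V-labelled one and -6.35 on the untreated one, below background on both of those. Cyp26a1, the hydroxylase that degrades retinoic acid and a textbook retinoic acid target, had 2.11 on the A2-labelled one and was likewise below background on the RA+D3V-labelled (-5.91) and untreated (-6.04) ones. In the value table Cyp24a1 had a log2 value of 14.3 in the column labelled RA+D3V and 2.79 in the column labelled A2. Cyp26a1 had 10.4 and 2.62 in those columns. The table's labels, and not those of the scanner files, thus put the high signal of both genes under RA+D3V. Arrays are called below by the labels of their scanner files, and no value below can be assigned to a compound without settling that conflict.

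Complement is a set of blood proteins that mark targets for uptake and lysis. C1q, built from A, B and C chains, binds antibody complexes and dying cells and starts the classical pathway, and unlike most complement proteins, which the liver supplies, it is made mainly by macrophages and dendritic cells. C3 is the protein on which all pathways converge, factor B supplies the protease of the alternative pathway convertase, and properdin, stored by neutrophils and monocytes, stabilises that convertase. C3ar1 encodes the receptor for the fragment C3a.

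Every member was well above background on all 3 arrays. Levels are processed signals on a log2 scale, relative to the 75th percentile of their own array (0). They are compared between arrays for the same probe. The exceptions are the sums over marker genes and the remarks on bright or dim signals, which set different probes side by side. Of the 7 members 4 (C1qb, C1qc, Cfp and Cfb) exceeded the untreated array by at least 2-fold on the A2-labelled array, against 7.92% of 17280 genes measured on both. On the RA+D3V-labelled array 6, all but Cfb, did so, against 7.78% of 17281 genes. Since the genes were picked on these differences, nothing is read from the counts. None was 2-fold lower on either array (background 6.46% and 5.06%).

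The probes are 60-base DNA oligos, and each value below is the reading of 1 such stretch of RNA. 4 of them are shown, for both C1q chains whose differences were furthest apart on the A2-labelled array and for properdin and factor B, of which the first read alike on both treated arrays and the other did not. Positions are in mm9, all on the minus strand. The probe of C1qa lies at chr4:136452409-136452468, that of C1qb at chr4:136436578-136436637, that of Cfp at chrX:20502742-20502801 and that of Cfb at chr17:34993502-34993858.
C1qa probe: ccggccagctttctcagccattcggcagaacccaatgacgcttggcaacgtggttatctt
C1qb probe: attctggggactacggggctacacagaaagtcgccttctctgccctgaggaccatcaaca
Cfp probe: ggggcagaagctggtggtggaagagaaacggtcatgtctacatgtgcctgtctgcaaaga
Cfb probe: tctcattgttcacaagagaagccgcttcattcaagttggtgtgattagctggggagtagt
The Cfb probe's 60 bases spread over 357 bases of genome, so it reads RNA joined across a gap of the genomic sequence, whereas the other 7 probes each lie in 1 block. The GC content of the 8 probes lay between 38.3% and 55.0%.

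All 3 C1q genes stood highest on the RA+D3V-labelled array. C1qa had a processed signal of 257 on the A2-labelled array, 1264 on the RA+D3V-labelled array and 197 on the untreated array, or -0.09, 2.12 and -0.86 on the scaled log2 scale. C1qb read 1.48, 2.45 and -0.57 on the A2-labelled, RA+D3V-labelled and untreated arrays. C1qc was spotted 10 times on each array and averaged 1.00 ± 0.07 (labelled A2), 2.78 ± 0.07 (labelled RA+D3V) and -0.72 ± 0.11 (untreated; SD over spots of 1 array). The C1qc spots ran from 0.86 to 1.08, from 2.60 to 2.83 and from -0.85 to -0.55 in the same order. The spots of an array share 1 RNA sample, so these ranges do not cover the spread between cultures.

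**Figure D1:**
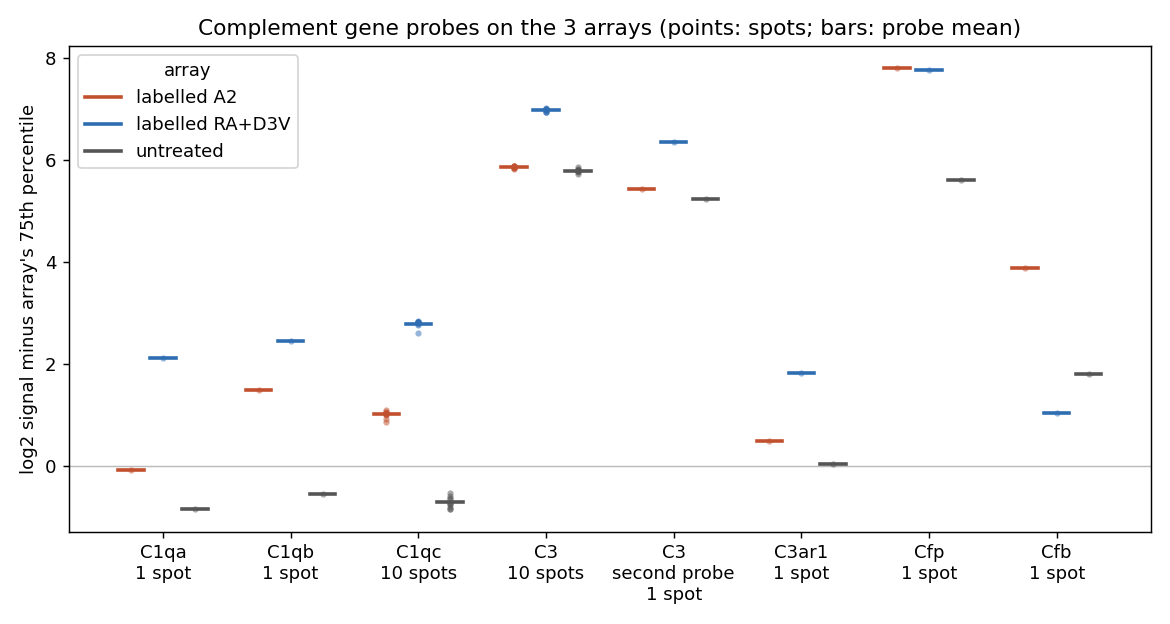
Log2 signal minus the array's 75th percentile (y axis) of the 8 probes of the complement genes (x axis) on the A2-labelled, RA+D3V-labelled and untreated arrays; points are spots and bars probe means. The C1q probes are highest on the RA+D3V-labelled array (2.12 to 2.78), Cfp is alike on both treated arrays (7.80 and 7.76) and Cfb is highest on the A2-labelled array (3.87).

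Against the untreated array the C1q chains were 7.88-fold (C1qa), 8.09-fold (C1qb) and 11.3-fold (C1qc) higher on the RA+D3V-labelled array. Of 17281 measured genes, 39, 37 and 26 had a larger increase than C1qa, C1qb and C1qc on that array. On the A2-labelled array the increases were 1.70-fold, 4.13-fold and 3.30-fold for the same chains, and C1qa was the one that stayed under 2-fold. The chains therefore lay close together on the RA+D3V-labelled array (log2 differences within 0.52 of each other) and further apart on the A2-labelled array (within 1.28). C1qa and C1qb were each read from 1 spot per array, as were C3ar1, Cfp and Cfb, so their values have no spread over spots. Set against each other, the A2-labelled array minus the RA+D3V-labelled one gave log2 differences of -2.21 for C1qa, -0.97 for C1qb and -1.78 for C1qc. The standard error of the C1qc differences over spots was at most 0.04, which covers the spotting of 1 RNA sample and not the spread between cultures.

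The only measure of spread beyond single arrays comes from the value table, whose control column matches none of the scanner files. When the untreated array was given the table's distribution, both controls differed by an SD of 0.26 (log2) over 17005 genes, and by 0.30 to 0.31 over genes within 0.5 log2 units of a C1q chain's signal. The untreated array read 0.20 (C1qa), 0.32 (C1qb) and 0.15 (C1qc) above the table's control. The other 4 members lay between -0.06 and 0.24. Whether the second control is a separate culture is unknown, and since the genes were picked on their differences, nothing is read from setting them against this spread.

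The C1q genes lie side by side on chromosome 4, in the order C1qb, C1qc and C1qa among protein-coding genes of the RefSeq table (GRCm38.p6). The flanking gene Ephb2, an ephrin receptor, had scaled log2 signals of -1.46, -1.64 and -2.22 on the A2-labelled, RA+D3V-labelled and untreated arrays. On the other side Epha8 was below background on every array. Ephb2 thus lay within 2-fold of untreated on both treated arrays (0.76 and 0.58). On the A2-labelled array its difference was close to that of C1qa (0.77). The RefSeq promoter table held 5 of the 7 members. The 250 bases before the start of C1qb (chr4:136886201-136886450, minus strand, GRCm38.p6), C1qc (chr4:136892915-136893164, minus strand) and C3 (chr17:57228137-57228386, minus strand) are shown because C1qb and C1qc were 8.09-fold and 11.3-fold higher on the RA+D3V-labelled array, with C3 for comparison. Capitals mark matches, on either strand, to GAGGAA (a core recognised by the myeloid factor PU.1), AGGTCA (a half-site of nuclear receptors, among them those of retinoic acid and vitamin D) and TTNNGNAA (a C/EBP pattern).
C1qb promoter: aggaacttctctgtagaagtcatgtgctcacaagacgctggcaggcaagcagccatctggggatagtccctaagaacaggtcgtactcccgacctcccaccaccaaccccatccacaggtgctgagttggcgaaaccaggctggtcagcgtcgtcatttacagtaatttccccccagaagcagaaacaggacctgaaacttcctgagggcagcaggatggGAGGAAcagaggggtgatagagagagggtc
C1qc promoter: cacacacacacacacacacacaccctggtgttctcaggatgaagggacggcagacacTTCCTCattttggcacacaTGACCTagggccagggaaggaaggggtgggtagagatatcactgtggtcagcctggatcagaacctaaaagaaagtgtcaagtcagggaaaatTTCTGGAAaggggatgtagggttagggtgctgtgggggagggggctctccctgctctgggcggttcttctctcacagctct
C3 promoter: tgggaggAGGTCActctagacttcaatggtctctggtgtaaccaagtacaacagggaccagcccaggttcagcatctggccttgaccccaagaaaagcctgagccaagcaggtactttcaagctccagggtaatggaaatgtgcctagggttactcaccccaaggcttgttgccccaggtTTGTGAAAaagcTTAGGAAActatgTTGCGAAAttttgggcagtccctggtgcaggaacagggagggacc
C1qb held GAGGAA 30 bases before its start, and C1qc held it 193 bases before, on the other strand. Of 32851 promoter windows of this length 23.3% held GAGGAA, 14.0% AGGTCA and 36.8% TTNNGNAA, and no 2 of the matches marked here overlap, apart from 1 C/EBP match in C3 that reads on both strands. In C3 the C/EBP pattern occurred at 3 places, 70, 58 and 45 bases before the start. The C3ar1 and Cfp windows held none of these 3 patterns. These matches describe letters of the reference and no binding was measured.

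C3 was bright on all arrays and was higher on 1 of them. Its 10 spots averaged 5.86 ± 0.02 on the A2-labelled array, 6.97 ± 0.03 on the RA+D3V-labelled array and 5.79 ± 0.04 on the untreated array (SD over spots). Its second probe, at chr17:57343678-57343737 (mm9), read 5.43, 6.34 and 5.24 in the same order. Both probes thus placed C3 at least 2-fold higher on the RA+D3V-labelled array (2.28-fold and 2.15-fold) and close to untreated on the A2-labelled array (1.05-fold and 1.15-fold). The log2 difference on the A2-labelled array was 0.07, and with quantile normalization it was -0.03.
C3 second probe: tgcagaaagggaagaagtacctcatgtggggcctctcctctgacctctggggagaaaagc
C3ar1 ran the same way, with 0.49 on the A2-labelled array, 1.81 on the RA+D3V-labelled array and 0.03 on the untreated array. It was thus 1.37-fold higher than untreated on the A2-labelled array and 3.42-fold higher on the RA+D3V-labelled one.

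Properdin and factor B, which act in the same convertase, showed different patterns. Properdin, Cfp, read 7.80 and 7.76 on the A2-labelled and RA+D3V-labelled arrays against 5.60 on the untreated array, 4.60-fold and 4.49-fold higher. It was the member whose values on both treated arrays lay closest together (log2 difference 0.04, and -0.04 at its lowest under the other scanner settings). Factor B, Cfb, read 3.87 on the A2-labelled array, 1.04 on the RA+D3V-labelled array and 1.79 on the untreated array. It was 4.20-fold higher than untreated on the A2-labelled array, with 333 genes showing a larger increase, and its log2 difference from untreated on the RA+D3V-labelled array was -0.76, which is within 2-fold. Cfb was the single member higher on the A2-labelled array than on the RA+D3V-labelled one by 2-fold (7.09-fold, with 3.78% of 17631 genes so), while C1qa, C1qc, C3 and C3ar1 were at least 2-fold lower there (4.04% of genes). C1qb, at -0.97, lay just inside 2-fold, and with quantile normalization, at -1.07, just outside it. The second probe of C3, at -0.91, also lay inside 2-fold.

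**Figure D2:**
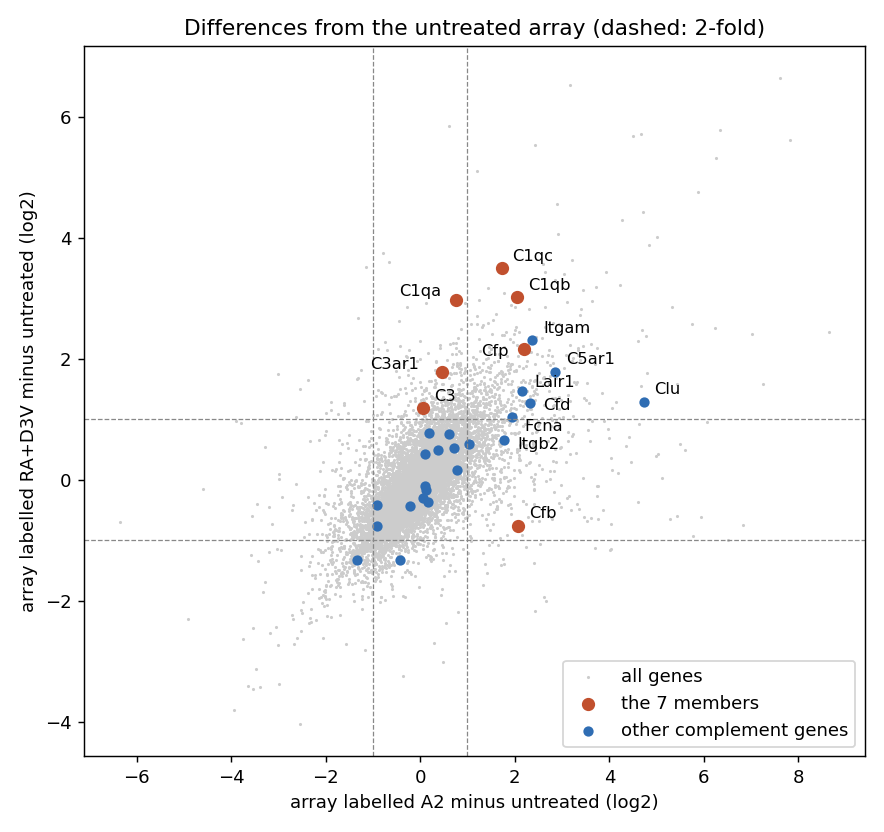
Log2 difference from the untreated array on the A2-labelled array (x axis) and on the RA+D3V-labelled array (y axis) for genes of the RefSeq table measured on all 3 arrays (grey), the 7 complement genes of this account (red) and the other complement genes (blue). Both axes share the untreated array, and the C1q genes lie at 2.98 to 3.50 on the y axis while Cfb lies at 2.07 on the x axis and -0.76 on the y axis.

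The rest of the pathway was read from a list of 49 further complement genes, 48 of them on the array. Of these, 23 were measured against untreated on each treated array: 8 were at least 2-fold higher and 1 was 2-fold lower on the A2-labelled array (7.92% and 6.46% of all genes; median log2 difference 0.37, against -0.03 over all genes), and 6 were higher and 2 lower on the RA+D3V-labelled array (7.78% and 5.06% of all genes; median 0.49, against -0.03). Fcna and Fcnb, ficolins that start the lectin pathway, went opposite ways. Fcna read -1.43 (labelled A2), -2.33 (labelled RA+D3V) and -3.37 (untreated), so it was higher on both treated arrays (log2 differences 1.94 and 1.04). Fcnb, which in mouse is a myeloid ficolin, read -1.11, -1.10 and 0.22 in that order (differences -1.33 and -1.32), and its other probe gave -1.11 and -0.64. Colec11, a collectin, lay within 2-fold on the A2-labelled array (-0.44) and was lower on the RA+D3V-labelled array (-1.33). The proteases and substrates that act straight after C1q showed no 2-fold difference: C1ra (0.05 on the A2-labelled array and -0.31 on the RA+D3V-labelled one), C2 (0.17 and -0.36) and C4b (0.10 and -0.10). C1s was below background on all arrays.

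Factor D, Cfd, the protease that cleaves factor B, read -0.91 (labelled A2), -1.96 (labelled RA+D3V) and -3.24 (untreated), and was higher on both treated arrays (log2 differences 2.33 and 1.28). Its signal on the untreated array, 38.0, was dim, as were those of Fcna (34.7) and C5ar1 (23.9). Of 11 measured receptor genes, C3ar1 included, 4 were at least 2-fold higher and 7 lay within 2-fold on each treated array. Over all genes 7.92% (labelled A2) and 7.78% (labelled RA+D3V) were so much higher. Itgam, C5ar1 and Lair1 were among the 4 on both. C3ar1, a member picked on these differences, was among the 4 on the RA+D3V-labelled array. Itgam, the alpha chain of complement receptor 3, differed by 2.37 on the A2-labelled array and by 2.31 on the RA+D3V-labelled one, and its other 2 probes by 2.13 to 2.35 and by 2.25 to 2.71. C5ar1, the receptor of the fragment C5a, differed by 2.86 and 1.79. Lair1, an inhibitory receptor that can bind C1q, differed by 2.14 and 1.47 on its brighter probe. Its other probe gave 1.92 and 0.70, so on the RA+D3V-labelled array that probe lay within 2-fold. Itgb2, the beta chain that pairs with Itgam, was 2-fold higher on the A2-labelled array only (1.78, with 0.65 on the RA+D3V-labelled array). Gpr77, the second C5a receptor (C5ar2), differed by 0.12 and -0.16 on its brighter probe and by 1.32 and 0.73 on its other one.

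Among regulators, clusterin (Clu), which blocks assembly of the terminal complex, read 3.39 on the A2-labelled array, -0.04 on the RA+D3V-labelled array and -1.33 on the untreated array. Its log2 differences of 4.73 and 1.29 made it the largest increase of the complement lists on the A2-labelled array. Cd59a, a membrane inhibitor of the same complex, was just over 2-fold higher on the A2-labelled array (1.04) and lay at 0.59 on the RA+D3V-labelled one. Cr1l, the mouse inhibitor Crry, lay within 2-fold below untreated on both (-0.91 and -0.77). Susd4, another membrane regulator, was well above background on the RA+D3V-labelled array only, at least 4.94-fold above untreated. Of 7 terminal pathway genes, C8g alone was measured on all arrays (0.11 and 0.42), C5 (Hc) passed background only on the A2-labelled array, with a bound under 2-fold, and the other 5 were below background on every array.

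**Figure D3:**
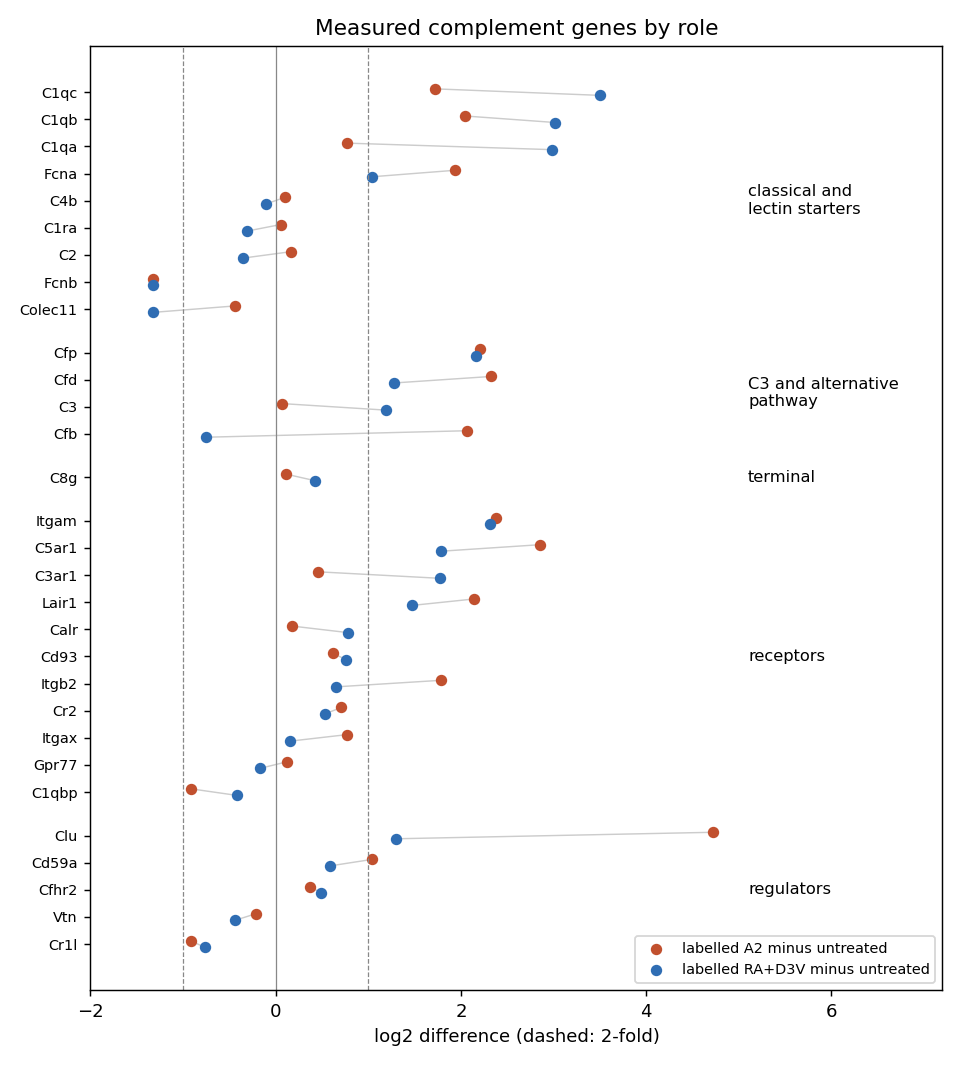
Log2 difference from the untreated array (x axis) of the 30 complement genes measured on all arrays, the 7 members included, grouped by role, for the A2-labelled (red) and RA+D3V-labelled (blue) arrays. The C1q genes and C3ar1 stand further right on the RA+D3V-labelled array, and Cfb, Cfd, C5ar1 and Clu on the A2-labelled array.

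The labelled cell type was checked against its markers. All 8 myeloid and macrophage markers were well above background on every array, with a summed scaled signal of 357 (labelled A2), 464 (labelled RA+D3V) and 798 (untreated). On the untreated array most of that sum was Mpo, a granule enzyme of myeloid precursors, and without it the other 7 summed to 213 (labelled A2), 239 (labelled RA+D3V) and 127 (untreated). The median log2 difference of the 8 was 0.21 (labelled A2) and 0.39 (labelled RA+D3V). Mpo differed from untreated by -2.22 (labelled A2) and -1.57 (labelled RA+D3V) and Cd14 by -1.24 and -1.25. Itgam was over 2-fold higher on both, as given above, Fcgr3, an Fc receptor, differed by 1.73 and 0.89, and Lyz2, lysozyme, by 0.55 and 1.82. Csf1r (0.69 and 0.59), Ptprc (-0.17 and 0.19) and Spi1, which encodes PU.1 (-0.13 and -0.38), lay within 2-fold. Of 8 resident macrophage markers 5 were above background on each treated array and 2 on the untreated one, with a summed scaled signal of 74.1 (labelled A2), 143 (labelled RA+D3V) and 30.7 (untreated). Most of that sum was Adgre1, and without it the rest summed to 16.0, 53.9 and 4.20 in the same order. Mrc1, the mannose receptor, was at least 3.22-fold higher than untreated on the A2-labelled array and at least 95.7-fold on the RA+D3V-labelled array, whereas Mertk was at least 27.1-fold and 17.3-fold higher and Cd5l at least 19.1-fold and 3.58-fold. Cd163, Vsig4 and Timd4 were below background on all arrays. The part of these macrophage genes in the C1q values was not tested, and in RNA from a whole culture more cells of a type and more RNA per cell cannot be told apart. Of 5 hepatocyte markers none was above background on the RA+D3V-labelled array or untreated and 1 on the A2-labelled array. T and NK cell markers (3, 2 and 4 of 5 above background) summed to 4.18 (labelled A2), 4.27 (labelled RA+D3V) and 5.77 (untreated), B cell markers (4 of 4 on each) to 18.5, 12.4 and 18.9, and dendritic cell markers (2 of 4 on each) to 118, 156 and 100.4. Most of the T and NK cell sum was Cd3e, and without it the rest summed to 0.35 (labelled A2), 0.40 (labelled RA+D3V) and 1.23 (untreated). Most of the B cell sum was Cd79b. Nearly all of the dendritic sum was Siglech (0.24 and 0.65 from untreated), while Flt3 differed by -2.28 and -1.80 and Zbtb46 and Xcr1 were below background on all arrays. Erythroid markers (3, 2 and 2 of 4) summed to 2.15, 2.19 and 3.55, mostly Hba-a1, and stromal ones (3, 2 and 1 of 6) to 0.94, 1.11 and 0.63. Without Pecam1 the stromal sum was 0.43, 0.22 and 0.12. Col1a1 was at least 4.99-fold above untreated on the A2-labelled array, the only stromal marker 2-fold apart there. The part of these cells in the complement values was not tested.

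The genes whose pair of differences lay closest to the C1q mean (1.51 on the A2-labelled array and 3.16 on the RA+D3V-labelled array) were Clec4n, Marchf1, Clec4b1, Ms4a6d and Marco, out of 12323 genes of the RefSeq table measured on all arrays. Closeness is the Euclidean distance over the 2 log2 differences from the shared untreated array, which ranged from 0.08 (Clec4n) to 0.45 (Marco). Clec4n differed by 1.43 and 3.17 on the A2-labelled and RA+D3V-labelled arrays, and Marco by 1.71 and 3.57. C1qa lay at a distance of 0.77 from the mean of its own group, and 16 other genes lay at least as close. With 3 arrays such likeness is a description of these arrays.

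The treated columns of the authors' deposited value table rank the spots as the scanner files with the other treated label do. They are thus no second measurement, and the same picture appears in that table under the opposite labels. There the column labelled A2 lay above the table's own control by 3.18 (C1qa), 3.42 (C1qb) and 3.73 (C1qc) on the log2 scale, and the column labelled RA+D3V by 0.94, 2.33 and 1.82. Cfb lay at -0.76 in the column labelled A2 and at 2.05 in the column labelled RA+D3V. Cfp, which hardly separated the treated arrays, was 2.09 and 2.12 above the table's control in those columns, so its increase does not depend on which label is right.

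**Figure D4:**
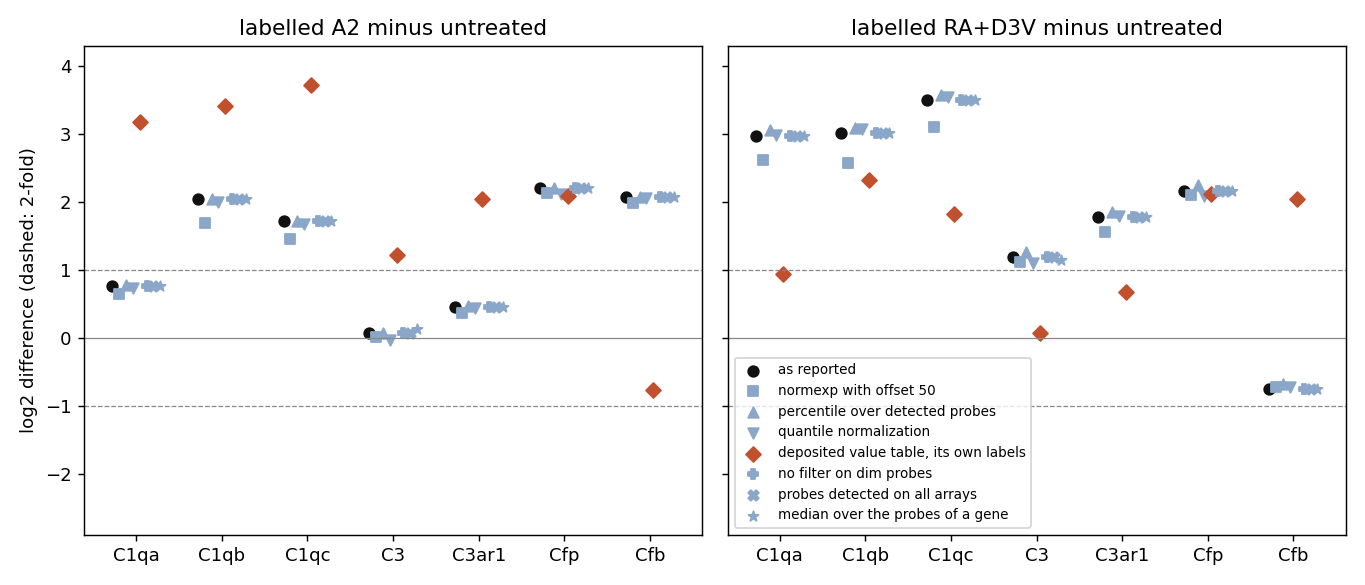
Log2 difference from untreated (y axis) of the 7 members (x axis) on the A2-labelled array or column (left) and labelled RA+D3V (right), as reported (black), under the other settings of the scanner data (blue) and in the deposited value table under its own labels (red). The C1q genes lie at 3.18 to 3.73 in the table's A2 column, against 0.77 to 2.04 on the scanner array labelled A2, whereas Cfp lies near 2.1 to 2.2 in each.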

How the data were processed

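RNA was labelled with Cy3 from 50 ng per sample and hybridised to a mouse Agilent array, per the labels. Scanning used Agilent Feature Extraction 11.5.1.1, per the submitters' processing notes. The deposited scanner files hold spot intensity, background-subtracted and detrended within each array with no scaling between arrays, and flags of other kinds (0 or 1), per the file headers. The authors' deposited value table holds intensity on a linear scale with equal distributions in its 3 columns, and how it was made is not given in the sources used here.

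Control spots and 25 uneven spots were left out. Processed signals were put on a log2 scale, set relative to the 75th percentile of their array and averaged over the spots of a probe. Names came from the RefSeq table by accession (27646 probes), symbol (3400) or synonym (321), and 24290 probes kept the file's name. The brightest probe stood for a gene. A difference counted as measured if both arrays flagged that probe as well above background, and was called at 2-fold. Where no probe of the gene was above background on the other array, the fold is a bound, taken against the probe's own signal or the dimmest detected probe of that array, whichever is higher, and written as "at least".

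With 1 array per condition no test was run, and the number of arrays limits the precision. The members, the lists and the rule for named genes (all members, list genes at least 2-fold apart on a treated array, the 5 genes closest to the C1q mean, and cell markers) were chosen with earlier results of these data known. Genes named beyond that rule (Ephb2, Epha8, Cyp24a1, Cyp26a1, and list genes within 2-fold) were chosen after their values were seen. Alternatives were normexp background correction (offset 50, limma 3.58.1), other scalings, filters and probe rules, and the value table.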

Additional observations from a re-analysis of the deposited data

How the results depend on the processing

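Differences were recomputed under 7 alternatives. The filters on dim probes could not move a member, since every member was well above background on all arrays. The probe rule could move only C3, the member with a second probe. Of 147 member values, these fixed ones included, 124 moved by less than the SD of 0.26 between the controls. Another 17 moved by more, and 6 that were at least 2-fold apart changed sign. All 6 came from the value table's labels: Cfb was -0.76 for A2 minus untreated, and for A2 minus RA+D3V the table gave 2.24 (C1qa), 1.91 (C1qc), 1.16 (C3), 1.36 (C3ar1) and -2.81 (Cfb). Of the 17, 2 that were under 2-fold also changed sign in that table, C1qb to 1.096 for A2 minus RA+D3V and Cfb to 2.05 for RA+D3V minus untreated. The number of members at least 2-fold above untreated was 4 (labelled A2) and 6 (labelled RA+D3V) under every scanner setting. In the value table, under its own labels, it was 6 and 4 (6.90% and 7.44% of all genes). Between the treated arrays 1 member was higher and 4 were lower on the one labelled A2 as reported. The table turned this round, with 5 higher and 1 lower. Since the members were picked on these differences, nothing is read from the counts. The complement lists were counted here with the 7 members included, unlike the further complement genes above. The count of genes at least 2-fold apart from untreated was then 13 (labelled A2) and 14 (labelled RA+D3V) of 30 measured with the main processing. It was 9 of 30 on the array labelled RA+D3V with normexp. With no filter on dim probes, where probes below background enter, it was 20 and 22 of 55. Normexp also brought C1qb and C1qc on the array labelled A2 to 1.69 and 1.45, and the C1q genes on the array labelled RA+D3V to 2.58 to 3.11. Over all genes, normexp placed 4.32% higher and 3.09% lower than untreated on the array labelled RA+D3V, against 7.78% and 5.06% as reported, and no filter placed 12.8% and 5.88%. On the array labelled A2 no filter placed 10.8% higher and 7.62% lower, against 7.92% and 6.46% as reported. With normexp 59.1% of all calls between the treated arrays were higher on the one labelled A2, against 48.3% as reported, 41.1% with the percentile over detected probes and 37.8% with no filter. Genes detected on 1 array of a pair, such as Susd4 and Mrc1, have only a bound. No paired analysis was possible because each group has 1 array.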
